A study of Mus musculus with 12 samples.

Results

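Leukocyte homing is the set of steps by which blood cells find, enter, stay in and leave a tissue. The 8 genes described here encode homing receptors and adhesion molecules of lymphocytes: the chemokine receptors Cxcr4, Ccr7, Ccr2 and Cxcr5, the sphingosine-1-phosphate receptor S1pr1, and the integrin chains Itga4, Itgal and Itgb7. They are a list of names, drawn up with earlier results of these data known, and were read as rows of a table of 21885 mouse genes. All 8 passed the filter on low values (at least 10 in at least 4 libraries), and 7 of them were at 10 or above in all 12 libraries, the exception being Ccr2.

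RNA-seq was done on 12 libraries of sorted mouse cells in 3 groups of 4. The Pax5 KO group held Pax5-/- fetal liver cells sorted as common lymphoid progenitors and pre-pro-B cells (CLP/pre-pro-B). The Pax5 WT group held cells at the later pro-B and pre-BI stage, sorted from fetal liver with intact Pax5. Leukaemia cells with the PAX5 P80R mutant (P80R B-ALL, B-cell acute lymphoblastic leukaemia) were sorted by their GFP from the primary recipients 1300, 1301, 1302 and 1308. Not given in the sources used here are the recipients' tissue, the way the mutant was introduced, and the age of the animals. Genotype and sorted stage differed together in every comparison and cannot be told apart. Nothing in the labels says that the 4 libraries of a fetal liver group came from separate animals, so the p-values measure only the spread between these libraries. All 3 comparisons share groups with each other, so they are not independent.

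Chemokine receptors and S1PR1 are G protein-coupled receptors that read gradients of chemokines or of the lipid sphingosine-1-phosphate, and their signal switches integrins on the cell surface into the form that binds. Integrins are pairs of an alpha and a beta chain. In B-cell development CXCR4 and its ligand CXCL12 are known for keeping precursors in the marrow niche, where the integrin of the alpha-4 and beta-1 chains holds them to VCAM-1 on stromal cells. Pax5 encodes the transcription factor that commits cells to the B lineage by activating B-cell genes and repressing genes of other lineages.

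Values are scaled read counts, which are whole read counts that the authors had divided by 1 factor per library. Library depth was 36871775 to 43513852 reads for Pax5 KO, 33191950 to 39465256 for Pax5 WT and 24914250 to 29386256 for P80R B-ALL. Pax5 itself lay at 229.9 to 267 in the Pax5 KO libraries and at 6194 to 7315 in the Pax5 WT libraries, and in P80R B-ALL it was 847 in recipient 1300, 1146 in 1301, 1316 in 1302 and 255 in 1308. Cd79a, a marker of B-lineage cells that encodes part of the B-cell receptor complex, lay at 2343 to 2626 in Pax5 KO, at 43011 to 50939 in Pax5 WT and, in P80R B-ALL, at 7485 to 19767. The leukaemia libraries varied more than the others: the median SD of a gene on the log2 scale was 0.11 in Pax5 KO, 0.16 in Pax5 WT and 0.47 in P80R B-ALL. Recipient 1308 stood apart in markers of other cells. Its summed count over the 7 plasmacytoid dendritic markers was 327160, against 20516 to 52260.2 in the other 3 leukaemias, and over the 12 monocyte and granulocyte markers it was 241457, against 5678 to 135039. Recipient 1300 had the second highest erythroid sum, 410321, after 1.07e+06 in 1308. For genes whose leukaemia differences are given, the value without a leukaemia library is added where leaving it out changed the call or moved a called difference by over 1.5 times.

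**Figure D1:**
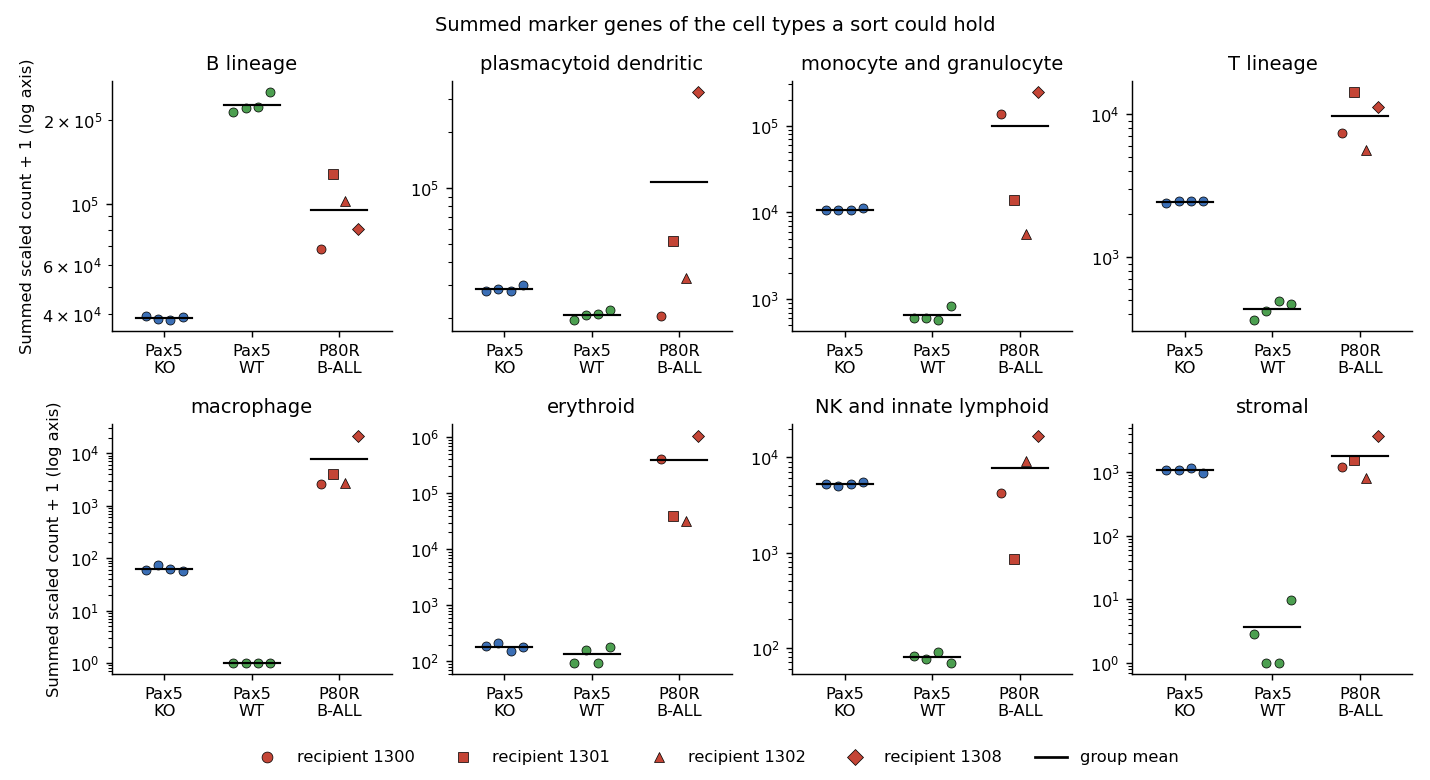
Summed scaled read counts of the lists of cell type markers, all but the endothelial list, in each library, with 1 added, on a log axis. Points are libraries, and the shape gives the recipient for P80R B-ALL. Recipient 1308 lies highest for the plasmacytoid dendritic, monocyte and granulocyte, macrophage, NK, erythroid and stromal lists.

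Between the fetal liver groups, every homing gene differed. In Pax5 KO cells Ccr2, Itgal, Itgb7, Cxcr5 and Ccr7 were higher than in Pax5 WT cells, and Cxcr4, S1pr1 and Itga4 were lower, 5 up and 3 down. The 4 libraries of each group did not overlap for any of the 8 genes. In the same fit 64.8% of the 12200 tested genes passed the test (35.7% higher and 29.1% lower in Pax5 KO), and for 59.1% the groups did not overlap, so most genes of any kind differed in this comparison. The test was limma's moderated test on log2 of the value plus 1, fitted to the 2 groups compared, with Benjamini-Hochberg adjustment over all tested genes and a threshold of 0.05. Differences of log2 values are given with their standard errors after ±. The median difference over the 8 genes was 1.42 on the log2 scale, against 0.06 over all tested genes. With a spread estimated from all 12 libraries together, leukaemia included, 3 of the 8 passed, and Ccr7, Cxcr5, S1pr1, Itga4 and Itgb7 did not.

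Against Pax5 WT, the leukaemias had higher Ccr2, Itgal and Cxcr4 and lower S1pr1. These 4 of the 8 genes passed the test, beside 39.9% of all tested genes (21% higher and 18.9% lower in P80R B-ALL). The 4 genes were also those whose groups did not overlap, as held for 40.6% of all tested genes. Ccr7, Cxcr5, Itga4 and Itgb7 did not pass. The median difference of the 8 genes was 0.33, against -0.004 over all tested genes.

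Against Pax5 KO, Cxcr4 alone of the 8 passed the test, and it was higher in the leukaemias. The share of all tested genes that passed was 38.4% (17.6% higher and 20.8% lower in P80R B-ALL). The groups did not overlap for 2 of the 8, Cxcr4 and Ccr7, beside 42.4% of all tested genes. For Ccr7 the gap was small, 1431 in recipient 1308 against 1457 in Pax5 KO replicate 2. Of all genes, 2151 were higher and 2532 lower in the main fit, while edgeR on whole reads gave 2519 higher and 1833 lower. The median of all genes moved from -0.11 to 0.06 between these, and that of the 8 genes in the main fit was -0.67. Without recipients 1300 and 1308, 5 of the 8 passed (3 higher, 2 lower), so the count of 1 rests on which leukaemias are included. Over all 12200 tested genes the number that passed also rose, from 4683 to 5971.

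**Figure D2:**
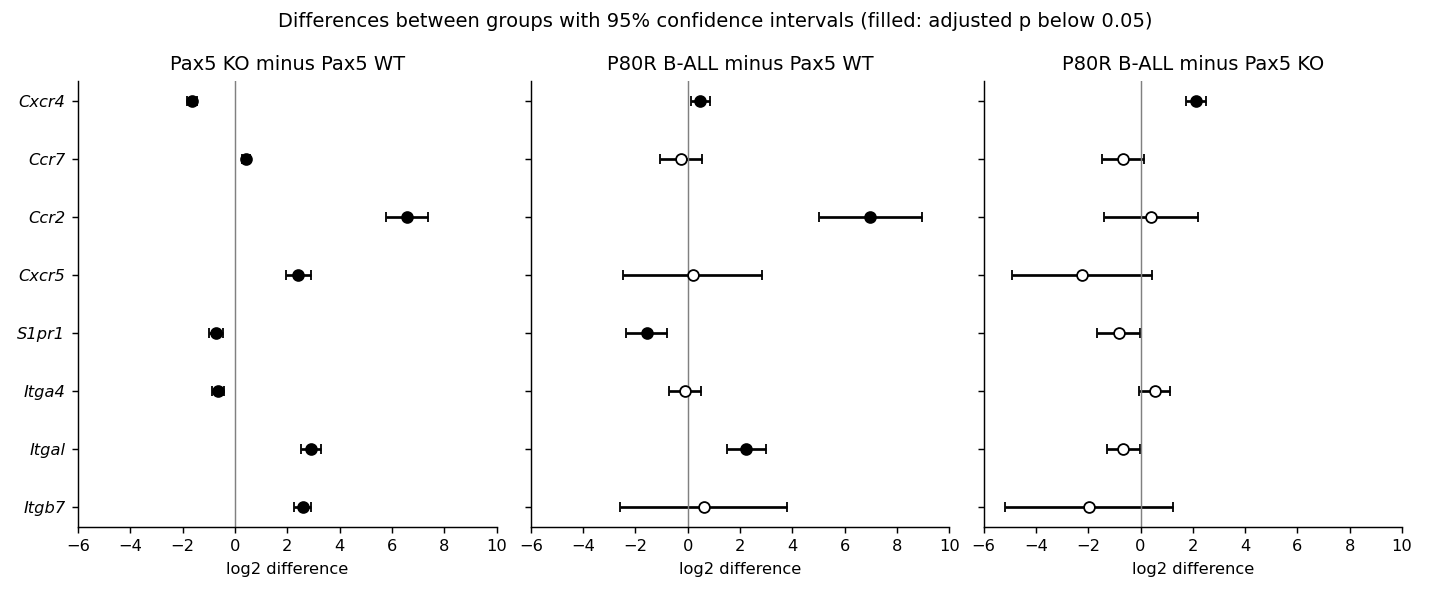
Difference of the mean log2(value + 1) between groups for the 8 genes in the 3 comparisons, with 95% confidence intervals from limma; filled points passed an adjusted p of 0.05. Intervals are narrow for Pax5 KO against Pax5 WT and widest for Cxcr5 and Itgb7 in the 2 leukaemia comparisons.

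Promoter sequence was available for 4 of the 8 genes, and it is shown because 2 of them, Cxcr4 and Itga4, were lower in Pax5 KO and the other 2, Ccr2 and Itgb7, were higher. Each sequence is the 250 bases before the gene's start in RefSeq, build GRCm38.p6, on the gene's own strand, 5′ to 3′. Cxcr4 lies at chr1:128592300-128592549 on the minus strand, Itga4 at chr2:79255176-79255425 on the plus strand, Ccr2 at chr9:124101933-124102182 on the plus strand and Itgb7 at chr15:102231936-102232185 on the minus strand. Capitals mark matches to any of 8 motifs searched on both strands. They were the E-box CAGGTG, RUNX TGTGGT, FOXO GTAAACA, KLF CCACCC, the GC box GGGCGG, and the longer motifs of EBF1, NF-kB and the interferon-stimulated element.
Cxcr4: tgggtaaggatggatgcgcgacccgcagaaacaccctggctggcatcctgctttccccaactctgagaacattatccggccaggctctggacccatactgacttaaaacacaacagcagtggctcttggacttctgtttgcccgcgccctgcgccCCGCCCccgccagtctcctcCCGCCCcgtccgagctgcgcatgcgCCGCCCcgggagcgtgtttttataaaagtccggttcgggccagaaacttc
Itga4: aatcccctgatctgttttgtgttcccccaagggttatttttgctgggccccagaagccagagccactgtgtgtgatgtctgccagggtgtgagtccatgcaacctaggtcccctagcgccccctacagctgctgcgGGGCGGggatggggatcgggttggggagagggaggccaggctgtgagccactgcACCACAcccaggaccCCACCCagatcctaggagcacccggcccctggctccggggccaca
Ccr2: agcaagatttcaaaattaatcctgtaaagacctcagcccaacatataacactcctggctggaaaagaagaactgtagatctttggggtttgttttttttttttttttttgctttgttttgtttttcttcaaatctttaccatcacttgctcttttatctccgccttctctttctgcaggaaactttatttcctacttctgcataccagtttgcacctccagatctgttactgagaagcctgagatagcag
Itgb7: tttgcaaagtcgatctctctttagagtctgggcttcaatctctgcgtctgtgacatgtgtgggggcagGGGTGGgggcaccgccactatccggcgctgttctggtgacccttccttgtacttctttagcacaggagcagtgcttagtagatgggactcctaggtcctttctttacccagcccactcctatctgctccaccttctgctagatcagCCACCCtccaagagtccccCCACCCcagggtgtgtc
The Cxcr4 window was rich in G and C (61.2%) and held 3 GC boxes, a motif that 33% of the 32536 RefSeq windows of this length held. The Itga4 window (64.0% G and C) held 1 GC box, 1 KLF match (held by 28.1% of windows) and 1 RUNX match (held by 14%). In the Itgb7 window there were 3 KLF matches, and no match was found in the Ccr2 window, which was poor in G and C (37.2%). No 2 matches overlapped. The EBF1, E-box, FOXO, interferon-stimulated and NF-kB motifs, held by 0.787%, 17.3%, 3.17%, 2.98% and 0.141% of windows, were in none of the 4. These matches describe the letters and are not measured binding sites.

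**Figure D3:**
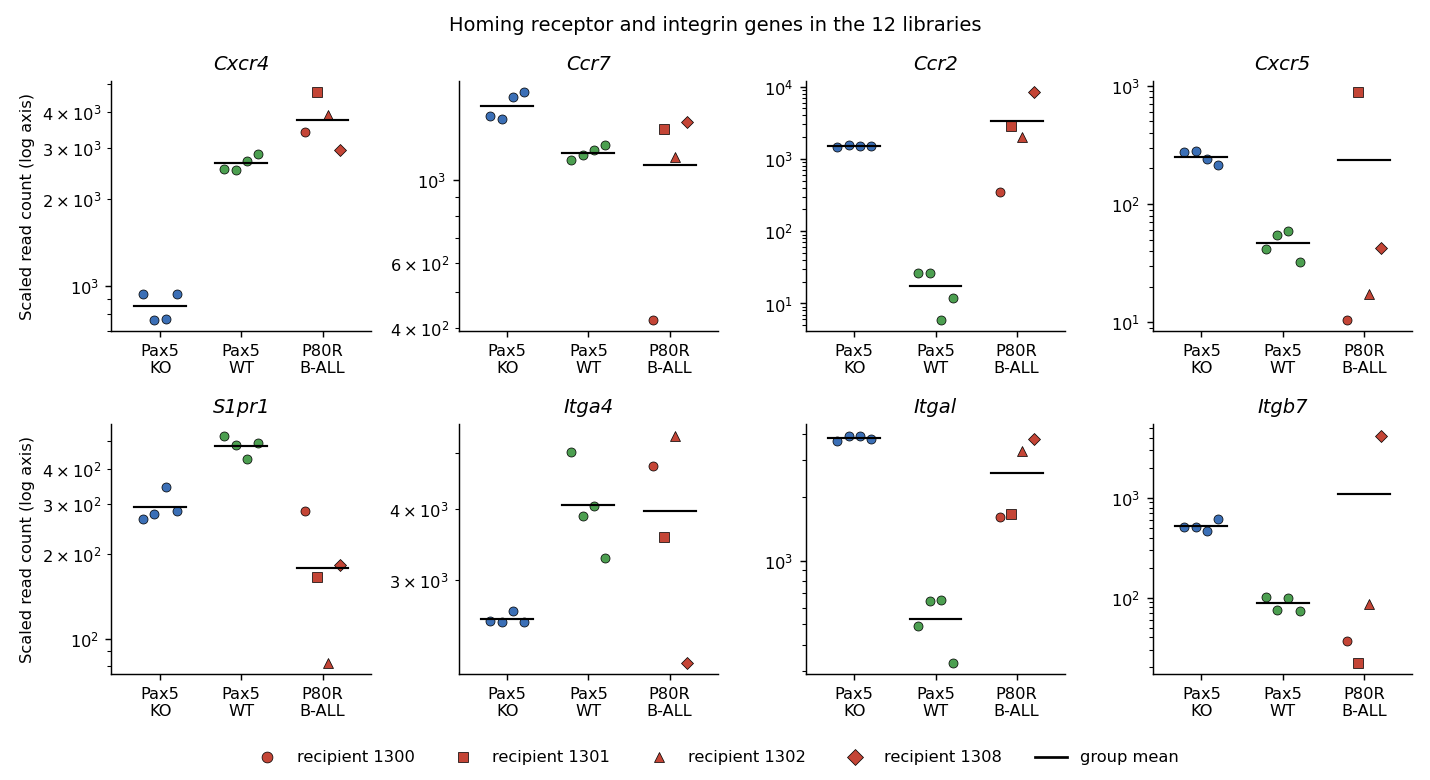
Scaled read counts of the 8 genes in the 12 libraries, on log axes, with a bar at each group mean. The 4 fetal liver libraries of a group mostly lie close together, least so for Ccr2 in Pax5 WT (5.93 to 26.5). Ccr2, Cxcr5 and Itgb7 spread widely over the 4 leukaemias.

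Cxcr4 encodes the receptor of CXCL12. Its scaled counts were 941, 763, 766 and 942 in Pax5 KO and 2536, 2530.1, 2718 and 2873 in Pax5 WT. In P80R B-ALL they were 3418 in recipient 1300, 4692 in 1301, 3921 in 1302 and 2973 in 1308. The 3 groups did not overlap, and the order Pax5 KO, Pax5 WT, P80R B-ALL held for every library. Group means were 853 ± 102, 2664 ± 164 and 3751 ± 737 (SD, n = 4 each). Cxcr4 was 3.12-fold lower in Pax5 KO than Pax5 WT (log2 difference -1.65 ± 0.09, adjusted p = 1.29e-08 by limma) and 4.40-fold higher in P80R B-ALL than in Pax5 KO (2.12 ± 0.17, adjusted p = 0.000113). The excess over Pax5 WT was smaller, 1.41-fold (0.47 ± 0.16, adjusted p = 0.0383). That last call was lost in 6 of the 8 fits that left out 1 library: without each of the 4 Pax5 WT libraries, without 1301 and without 1302, with adjusted p from 0.0584 to 0.107. The difference stayed between 0.36 and 0.58 in all 8.

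Cxcr4 was also the steadiest of the 8 genes among the leukaemias. Its SD of 0.28 on the log2 scale was larger than that of only 21.4% of tested genes in this group. Ackr3, the gene of the other CXCL12 receptor, lay at 0 to 1.64 in the fetal liver libraries and at 0 to 12.3 in the leukaemias, and was not tested. Cxcl12 itself lay at 1.71 to 53.3 in Pax5 KO and at 0 to 4.00 in Pax5 WT, and at 1796, 2316, 409 and 17578 in recipients 1300, 1301, 1302 and 1308. Cxcl12 thus passed the filter only with the leukaemias. It was higher in P80R B-ALL than in Pax5 WT (log2 difference 10.61 ± 1.05, adjusted p = 0.000109) and than in Pax5 KO (7.16 ± 1.21, adjusted p = 0.00287). With Pax5 WT near 0, the size of the first difference depends on the setting, and it ran from 7.76 to 12.29 over all alternatives. The first was 9.64 without recipient 1308, 11.45 without 1302 and 9.35 without both 1300 and 1308, and passed each time. The second was 6.19 without 1308, 8.00 without 1302 and 6.30 without Pax5 KO replicate 3, and did not pass with group variance weights (adjusted p = 0.0747). CXCL12 is known as a product of stromal cells. The 5 stromal markers summed to 795 to 3732 in the leukaemias, 965 to 1169 in Pax5 KO and 0 to 8.60 in Pax5 WT. In P80R B-ALL against Pax5 KO 3 of them were higher and 1 lower (38.4% of all tested genes passed). The lower one, Pdgfrb, the gene of a growth factor receptor, made up nearly all of the Pax5 KO sum (942 to 1164, against 61.5 to 182 in the leukaemias). Lepr, known from CXCL12-rich marrow stroma and one of the higher ones, was at 96.8 to 702 in the leukaemias and at 0 in all 8 fetal liver libraries. The part of stromal RNA in the Cxcl12 result was not tested. In bulk libraries, fewer cells of a type and less RNA per cell cannot be told apart.

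Ccr7 encodes the receptor of CCL19 and CCL21, which guide cells into lymph nodes and the thymus. It was the most even of the chemokine receptor genes across groups. Scaled counts were 1487, 1457, 1674 and 1722 in Pax5 KO, 1129, 1167, 1204 and 1243 in Pax5 WT, and 421, 1375, 1155 and 1431 in recipients 1300, 1301, 1302 and 1308. All 4 Pax5 KO libraries were above all 4 Pax5 WT libraries, and recipient 1300 alone lay far below the rest. Ccr7 was 1.34-fold higher in Pax5 KO than Pax5 WT (log2 difference 0.42 ± 0.08, adjusted p = 0.000465). The difference between P80R B-ALL and Pax5 WT was -0.26 ± 0.35 with a 95% interval of -1.05 to 0.53 (adjusted p = 0.584), and it was 0.15 without recipient 1300. Every leukaemia was below every Pax5 KO library, but the gap was small, with recipient 1308 at 1431 and Pax5 KO replicate 2 at 1457. The 95% exact Poisson intervals of these values, for counting error alone, overlapped (1345 to 1521 and 1390 to 1526). The difference between the groups of -0.68 ± 0.36 (95% interval -1.49 to 0.13) did not pass (adjusted p = 0.163).

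Ccr2 encodes the receptor of CCL2, known for bringing monocytes out of the marrow. It had the largest difference of the 8 genes between the fetal liver groups. Scaled counts were 1474, 1576, 1530.1 and 1521 in Pax5 KO, against 26.5, 26.0, 5.93 and 12.0 in Pax5 WT, which correspond to 28, 26, 6 and 14 reads. The level in Pax5 KO was 86.6-fold that in Pax5 WT (log2 difference 6.57 ± 0.36, adjusted p = 1.42e-08). Among the leukaemias it was 349.7 in recipient 1300, 2872 in 1301, 2017 in 1302 and 8343 in 1308. All 4 were above every Pax5 WT library (6.98 ± 0.88, adjusted p = 0.00039; 7.82 without recipient 1300 and 6.30 without 1308), on both sides of the Pax5 KO level. The P80R B-ALL mean of 3396 ± 3461 (SD, n = 4) was 1746 without recipient 1308.

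Markers of myeloid cells, which also carry Ccr2, moved with it between the fetal liver groups but not in order among the leukaemias. The 12 monocyte and granulocyte markers summed to 10551 to 11293 in Pax5 KO, to 577 to 828 in Pax5 WT and, in P80R B-ALL, 5678 to 241457. All 12 were higher in Pax5 KO than Pax5 WT, beside 35.7% of all tested genes. Elane, S100a8, S100a9 and Csf3r were at 0 in all Pax5 WT libraries, so they passed the filter only through other groups. Among the leukaemias the order of this sum (1308, 1300, 1301, 1302) was not that of Ccr2 (1308, 1301, 1302, 1300). The plasmacytoid dendritic and macrophage sums did have the order of Ccr2, and the sums of the other marker lists did not. The part of other cell types in the Ccr2 result was not tested. Against Pax5 KO, the difference for Ccr2 was 0.41 ± 0.79 (95% interval -1.38 to 2.21, adjusted p = 0.708). It was 1.26 (adjusted p = 0.0487) without recipient 1300, -0.27 without 1308, and 0.66 (adjusted p = 0.0121) without both. Ccr2 belongs to a family with near-identical stretches, so its counts are uncertain where reads match several genes, a setting not given in the sources used here.

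Cxcr5 encodes the receptor of CXCL13, by which mature B cells enter follicles. It was the lowest per kilobase of the 8 genes in Pax5 KO. Scaled counts were 273, 280.2, 239 and 216 in Pax5 KO and 41.6, 55.0, 59.3 and 32.7 in Pax5 WT. Pax5 KO was 5.35-fold above Pax5 WT (log2 difference 2.42 ± 0.21, adjusted p = 8.69e-07). Recipient 1301 had 879, above all other libraries, while 1300, 1302 and 1308 had 10.5, 17.4 and 42.9. Recipient 1300's value rests on 8 reads (95% exact Poisson interval 3.45 to 15.8, for counting error alone: PCR copies of a molecule were not told apart).

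That single leukaemia set the group's Cxcr5 mean. It was 237 ± 428 (SD, n = 4) with recipient 1301 and 23.6 without. The difference from Pax5 WT was 0.19 ± 1.18 (95% interval -2.47 to 2.84, adjusted p = 0.914) with it and -1.16 without it. Against Pax5 KO the difference was -2.24 ± 1.18 (95% interval -4.90 to 0.43, adjusted p = 0.162), and -3.58 (adjusted p = 0.00217) without recipient 1301. In the GENCODE M21 annotation 110 of the 3332 exon bases of Cxcr5 overlap Bcl9l, and the library kit does not mark strand.

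Among the other chemokine receptor genes, 15 of 19 were tested. In Pax5 KO against Pax5 WT 11 rose, 2 fell and 2 did not pass, with a median log2 difference of 4.62 (64.8% of all tested genes passed). Cxcr3, a receptor of effector T and NK cells, lay at 1462 to 1764 in Pax5 KO and 8.00 to 33.6 in Pax5 WT (6.61 ± 0.32, adjusted p = 4.54e-09). Cx3cr1, a receptor of monocytes, lay at 825 to 995 in Pax5 KO and 0 to 4.00 in Pax5 WT (9.25 ± 0.48, adjusted p = 7.44e-09). With Pax5 WT near 0, the Cx3cr1 difference ran from 6.40 to 9.83 over all alternatives. Against Pax5 WT the leukaemias had 12 of the 15 higher, none lower and 3 that did not pass (median 4.92), beside 39.9% of all tested genes that passed. The filter counted any 4 libraries, so receptors near 0 in Pax5 WT entered through the other groups. Such genes could hardly be lower in another group than in Pax5 WT, which raises these counts and medians. The same holds for such genes in the lists below. Ccr3, an eosinophil receptor, was at 99.9 to 1056 in the leukaemias and at 0 in all Pax5 WT libraries (adjusted p = 9.37e-05, and 6.46e-05 without recipient 1308). Against Pax5 KO 4 were higher, 2 lower and 9 did not pass (median 0.41), beside 38.4% of all tested genes that passed. Ccr9, a receptor for thymus and gut homing named after its values were seen, lay at 3150.4 to 3654 in Pax5 KO, at 0 to 7.91 in Pax5 WT, and at 10.5, 46.8, 1677 and 25992 in recipients 1300, 1301, 1302 and 1308.

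S1pr1 encodes the receptor that draws lymphocytes out of tissues towards blood and lymph. It was highest in Pax5 WT. Scaled counts were 265, 275, 345 and 283 in Pax5 KO, 524, 484, 431 and 492 in Pax5 WT, and 283, 165, 81.9 and 183 in recipients 1300, 1301, 1302 and 1308. Every Pax5 WT library was above every other library, and recipient 1300 lay within the Pax5 KO range. S1pr1 was 1.65-fold lower in Pax5 KO than Pax5 WT (log2 difference -0.73 ± 0.11, adjusted p = 0.000147) and 2.71-fold lower in P80R B-ALL than in Pax5 WT (-1.56 ± 0.35, adjusted p = 0.00673). The difference between P80R B-ALL and Pax5 KO was -0.83 ± 0.37 (95% interval -1.66 to -0.01) and did not pass (adjusted p = 0.1). It passed without recipient 1300 (-1.10, adjusted p = 0.0309).

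Cd69 encodes a surface protein that binds S1PR1 and takes it off the cell surface. It ran opposite to S1pr1 between the fetal liver groups, at 14321 to 17139 in Pax5 KO and 2492 to 2666 in Pax5 WT, and lay at 8295, 5059, 6381 and 6712 in recipients 1300, 1301, 1302 and 1308. The 3 groups did not overlap. Cd69 was 6.18-fold higher in Pax5 KO than Pax5 WT (log2 difference 2.62 ± 0.06, adjusted p = 8.12e-12) and 2.58-fold higher in P80R B-ALL than in Pax5 WT (1.35 ± 0.16, adjusted p = 0.000248). Cd69 itself is counted in a list of 11 genes with the other S1P receptors and the S1P enzymes and transporters. Of the 9 of these that were tested, 4 rose and 2 fell in Pax5 KO against Pax5 WT (64.8% of all tested genes passed). In P80R B-ALL 3 were higher and 1 lower than in Pax5 WT (39.9%), and 2 higher and 3 lower than in Pax5 KO (38.4%). Spns2, an exporter of S1P, lay at 692 to 793 in Pax5 KO, 389.5 to 1444 in P80R B-ALL and 1.89 to 10.0 in Pax5 WT. It was higher in P80R B-ALL than in Pax5 WT (6.95 ± 0.60, adjusted p = 5.32e-05). S1pr3, another S1P receptor, lay at 471 to 607 in Pax5 KO and 21.0 to 35.9 in Pax5 WT (4.36 ± 0.19, adjusted p = 1.8e-09), and at 21.0 to 449 in the leukaemias.

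Itga4 encodes the alpha-4 chain, which pairs with beta-1 to bind VCAM-1 or with beta-7 to bind MAdCAM-1. Scaled counts were 2544, 2533, 2647 and 2532 in Pax5 KO and 5034, 3876, 4038 and 3274 in Pax5 WT. In P80R B-ALL they were 4746, 3561, 5372 and 2142 in recipients 1300, 1301, 1302 and 1308. The Pax5 KO libraries were all below the Pax5 WT libraries, and 3 of the 4 leukaemias lay in or just above the Pax5 WT range while 1308 lay below every Pax5 KO library. Itga4 was 1.58-fold lower in Pax5 KO than Pax5 WT (log2 difference -0.64 ± 0.10, adjusted p = 0.000187). Against Pax5 WT the leukaemia difference was -0.10 ± 0.28 (95% interval -0.72 to 0.52, adjusted p = 0.794), and against Pax5 KO it was 0.54 ± 0.26 (95% interval -0.04 to 1.13, adjusted p = 0.126). Without recipient 1308 the latter was 0.81 and passed (adjusted p = 0.00434). In that annotation 1124 of the 13978 exon bases of Itga4 overlap Cerkl.

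Itgb7 encodes the beta-7 chain of the gut-homing integrin. Scaled counts were 515, 509, 462 and 619 in Pax5 KO and 102, 76.0, 99.9 and 73.1 in Pax5 WT. Pax5 KO was 6.00-fold above Pax5 WT (log2 difference 2.58 ± 0.16, adjusted p = 2.99e-08). The leukaemias were split: recipients 1300, 1301 and 1302 had 36.8, 22.2 and 86.8, in or below the Pax5 WT range, and recipient 1308 had 4208, above all other libraries. The group mean of 1089 ± 2080.1 (SD, n = 4) was 48.6 without 1308. With all 4 leukaemias the difference from Pax5 WT was 0.61 ± 1.42 (95% interval -2.59 to 3.81, adjusted p = 0.759) and that from Pax5 KO was -1.97 ± 1.42 (95% interval -5.19 to 1.26, adjusted p = 0.301). Without recipient 1308 they were -1.04 and -3.63, and the second passed (adjusted p = 0.000708). In edgeR on recovered reads, with all 4 leukaemias, the difference from Pax5 KO had the other sign (1.08, adjusted p = 0.586). In the same library Siglech, a plasmacytoid dendritic marker, was at 26551 (52.9 to 325 in the other leukaemias, 1166 to 1224 in Pax5 KO, 0 in Pax5 WT). The part of such cells in the Itgb7 value was not tested.

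Itgal encodes the alpha-L chain, which pairs with beta-2 to form LFA-1, the receptor of ICAM-1 and ICAM-2. Scaled counts were 3692, 3916, 3915 and 3764 in Pax5 KO, 493, 646, 649.5 and 328 in Pax5 WT, and 1607, 1672, 3319.7 and 3779 in recipients 1300, 1301, 1302 and 1308. All Pax5 KO libraries and all leukaemias were above all Pax5 WT libraries. Itgal was 7.22-fold higher in Pax5 KO (log2 difference 2.90 ± 0.18, adjusted p = 3.34e-08) and 4.90-fold higher in P80R B-ALL (2.24 ± 0.34, adjusted p = 0.000865) than in Pax5 WT. Against Pax5 KO the leukaemia difference was -0.66 ± 0.28 (95% interval -1.30 to -0.03) and did not pass (adjusted p = 0.0899). It was -0.88 and passed without recipient 1308 (adjusted p = 0.0214). Both calls against Pax5 WT held in all alternatives tried, and that of P80R B-ALL also without recipients 1300 and 1308.

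Itgb1 and Itgb2 encode the partner chains beta-1 and beta-2. Itgb1 lay at 10012 to 11492 in Pax5 KO, at 7629 to 8657 in Pax5 WT and, in P80R B-ALL, 6378 to 9611, and was 1.31-fold higher in Pax5 KO than Pax5 WT (log2 difference 0.39 ± 0.06, adjusted p = 0.000212). Itgb2 lay at 1779.9 to 1938, 1259 to 1337 and 1512 to 8309 in the same order, and was 1.43-fold higher in Pax5 KO than Pax5 WT (0.51 ± 0.06, adjusted p = 1.78e-05, and 0.324 with the spread of all 12 libraries). For Itgb2 in P80R B-ALL against Pax5 WT the difference of 1.23 ± 0.44 missed the threshold (adjusted p = 0.0506). It was 0.74 and passed without recipient 1308 (adjusted p = 0.0295), and also passed without 1301 (1.56, adjusted p = 0.0164), without 1302 (1.39, adjusted p = 0.0444) and in edgeR (1.53, adjusted p = 0.0315). Against Pax5 KO the difference for Itgb2 was 0.72 ± 0.45 (adjusted p = 0.231), 0.23 without 1308 and -0.04 without both 1300 and 1308. Per kilobase of exon, the ratio of Itgal to Itgb2 was 0.938 to 0.983 in Pax5 KO cells, 0.116 to 0.239 in Pax5 WT, and 0.236, 0.514, 0.719 and 0.211 in recipients 1300, 1301, 1302 and 1308. The ratio in recipients 1300 and 1308 thus lay within the Pax5 WT range, although their Itgal level was above it, and their Itgb2 level was high too (3166 and 8309).

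Alpha-4 can pair with either beta-1 or beta-7. The ratio of Itgb7 to Itgb1 per kilobase was 0.0592 to 0.0849 in Pax5 KO and 0.0131 to 0.0174 in Pax5 WT. It was 0.00685, 0.00512 and 0.0183 in recipients 1300, 1301 and 1302, and 0.645 in 1308, so beta-1 transcripts outnumbered beta-7 transcripts in every library. The ratio of Itga4 to Itgb1 was 0.0646 to 0.0742 in Pax5 KO and 0.125 to 0.170 in Pax5 WT. It was 0.175, 0.163 and 0.225 in recipients 1300, 1301 and 1302, and 0.0651 in 1308, within the Pax5 KO range. These ratios are of transcripts, depend on the annotated exon lengths, and say nothing of protein pairs on the surface.

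**Figure D4:**
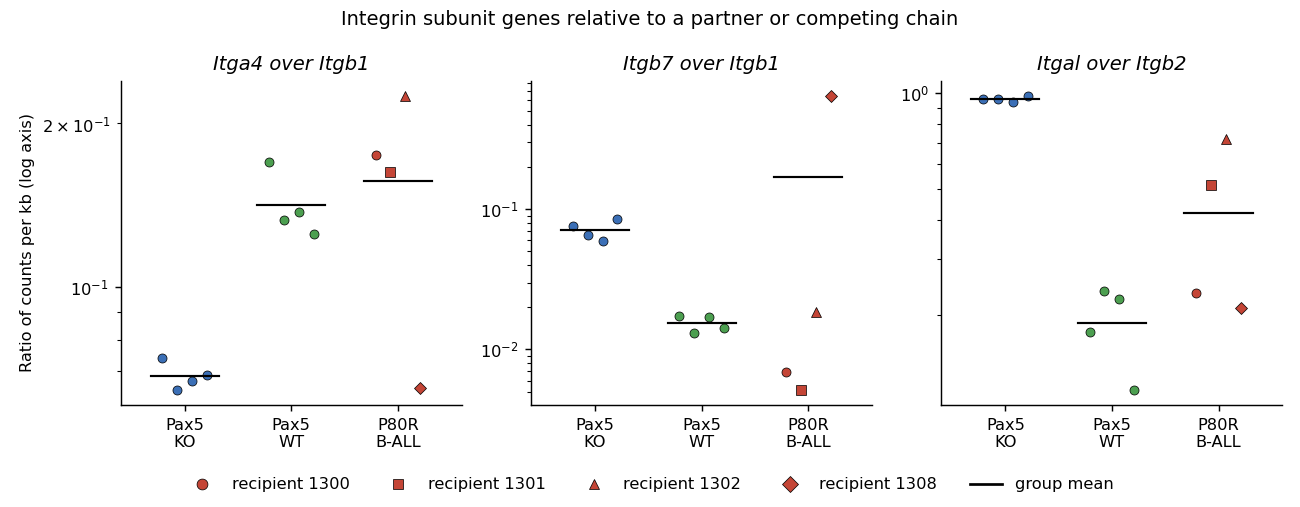
Ratios of integrin chain genes (scaled counts per kilobase of exon) in each library, on log axes, with a bar at each group mean. Recipient 1308 differs from the other leukaemias in having a high Itgb7 to Itgb1 ratio (0.645) and a low Itga4 to Itgb1 ratio (0.0651).

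Of the 20 integrin chain genes outside the 8, Itgb1 and Itgb2 among them, 15 were tested. In Pax5 KO against Pax5 WT 12 rose, 1 fell and 2 did not pass (median log2 difference 2.14), beside 64.8% of all tested genes that passed. Itgax, the gene of the alpha-X chain (CD11c) of dendritic cells, was at 82.3 to 109 in Pax5 KO and at 0 in all Pax5 WT libraries (adjusted p = 9.63e-09). It thus passed the filter only through other groups. Against Pax5 WT the leukaemias had 6 higher, 1 lower and 8 that did not pass (median 1.499), beside 39.9% of all tested genes that passed. Itga1, the alpha chain of a collagen receptor, lay at 108 to 1288 in the leukaemias and at 0 to 2.58 in Pax5 WT (7.79 ± 0.87, adjusted p = 0.00019; 7.09 without recipient 1300 and 6.47 without both 1300 and 1308). With Pax5 WT near 0, the Itga1 difference ran from 4.91 to 9.22 over all alternatives. Against Pax5 KO none of the 15 was higher, 3 were lower and 12 did not pass (median -0.44), beside 38.4% of all tested genes that passed.

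Genes that regulate or link integrin activation did not all move one way. The list holds mostly activators and adaptors, and also Itgb1bp1, whose product is known to inhibit beta-1 integrins. All 15 were tested, and 9 rose and 2 fell in Pax5 KO against Pax5 WT (64.8% of all tested genes passed). In P80R B-ALL 7 were higher and 2 lower than in Pax5 WT (39.9%), and 5 higher and 3 lower than in Pax5 KO (38.4%). Rap1b, a small GTPase that activates integrins, was close in Pax5 KO and Pax5 WT (12743 to 14196 over the 8 libraries) and lay at 21574 to 31116 in the leukaemias, 2.12-fold above Pax5 WT (log2 difference 1.07 ± 0.14, adjusted p = 0.000462). Rasgrp2, which encodes an activator of RAP1, was 2.48-fold lower in Pax5 KO than Pax5 WT (-1.31 ± 0.05, adjusted p = 7.03e-10). Vcl, the gene of the adaptor vinculin, was 4.46-fold lower in P80R B-ALL than in Pax5 KO (-2.18 ± 0.22, adjusted p = 0.000294), at 313 to 541 against 1543 to 2148.

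Of 12 genes of ligands of the 8 receptors, 5 passed the filter and were tested. In Pax5 KO against Pax5 WT 3 rose and 1 fell (64.8% of all tested genes passed). In P80R B-ALL 2 were higher and none lower than in Pax5 WT (39.9%), and 3 higher and none lower than in Pax5 KO (38.4%). Vcam1, the ligand of the alpha-4 and beta-1 integrin, lay at 3.29 to 13.7 in the 8 fetal liver libraries and at 1473, 2211, 2072 and 7132 in recipients 1300, 1301, 1302 and 1308. It was higher in P80R B-ALL than in Pax5 WT (log2 difference 8.21 ± 0.48, adjusted p = 9.51e-06). VCAM-1 is known on stromal cells and on tissue macrophages. The 7 macrophage markers were all at 0 in every Pax5 WT library, summed to 57.1 to 72.3 in Pax5 KO with C1qc, Cd5l and Timd4 at 0, and summed to 2586 to 21789 in the leukaemias. Their part in the Vcam1 result was not tested. Icam1 and Icam2, ligands of LFA-1, went opposite ways in Pax5 KO against Pax5 WT, Icam1 1.68-fold higher (0.75 ± 0.07, adjusted p = 1.98e-06) and Icam2 1.89-fold lower (-0.92 ± 0.06, adjusted p = 1.29e-07).

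Of 24 genes of chemokine receptor signalling and desensitisation 23 were tested. In Pax5 KO against Pax5 WT 14 rose and 7 fell (64.8% of all tested genes passed). In P80R B-ALL 7 were higher and 3 lower than in Pax5 WT (39.9%), and 3 higher and 6 lower than in Pax5 KO (38.4%). Rgs18, a regulator that shortens G protein signals, was graded over the groups, at 718 to 840.4 in Pax5 WT, at 4016 to 4567 in Pax5 KO and at 10029 to 15469 in P80R B-ALL. It was 5.27-fold higher in Pax5 KO (log2 difference 2.40 ± 0.07, adjusted p = 7.83e-11) and 16.4-fold higher in P80R B-ALL (4.02 ± 0.16, adjusted p = 1.58e-06) than in Pax5 WT. Grk3, a kinase that desensitises receptors, was at 224 to 404 in Pax5 KO, at 0 in all Pax5 WT libraries and at 27.6 to 278 in P80R B-ALL.

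Vascular selectins, a selectin ligand, the enzymes that modify it and the protease gene Adam17 made a list of 10 genes, of which 8 were tested. In Pax5 KO against Pax5 WT 6 rose and 1 fell (64.8% of all tested genes passed). In P80R B-ALL 3 were higher and none lower than in Pax5 WT (39.9%), and 2 higher and 2 lower than in Pax5 KO (38.4%). Gcnt1, an enzyme that builds the sugar core of selectin ligands, was 4.32-fold higher in Pax5 KO than Pax5 WT (log2 difference 2.11 ± 0.09, adjusted p = 2.06e-09). Fut4, a fucosyltransferase of the same pathway, was at 354 to 757 in P80R B-ALL and 60.0 to 112 in Pax5 WT (2.80 ± 0.32, adjusted p = 0.00023). Adam17, whose product sheds proteins from the cell surface, was 1.61-fold lower in P80R B-ALL than in Pax5 KO (-0.71 ± 0.18, adjusted p = 0.0143).

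FOXO1 and KLF2 are known activators of S1pr1 and Ccr7 in lymphocytes. Foxo1 was at 3121 to 3251 in Pax5 KO, at 6107 to 6528 in Pax5 WT and, in P80R B-ALL, at 1656 to 3608. It was 1.98-fold lower in Pax5 KO (log2 difference -0.99 ± 0.05, adjusted p = 7.62e-09) and 2.34-fold lower in P80R B-ALL (-1.28 ± 0.22, adjusted p = 0.00158) than in Pax5 WT. Klf2 was at 1554 to 1676 in Pax5 KO and 1089 to 1236 in Pax5 WT. Recipients 1300, 1301 and 1302 had 130.2, 117 and 127 and recipient 1308 had 1517, above all Pax5 WT libraries. Against Pax5 WT the difference was -2.32 ± 0.75 (adjusted p = 0.0351). It did not pass in edgeR (adjusted p = 0.247) or in 7 of the 8 fits that left out 1 library (adjusted p 0.0711 to 0.082), all but the one without 1308 (-3.22, adjusted p = 9.19e-06). In recipients 1300, 1301 and 1302, Foxo1 and Klf2 were both below every Pax5 WT library. S1pr1 was below every Pax5 WT library in all leukaemias and also in Pax5 KO. Klf2 was above every Pax5 WT library in Pax5 KO and in 1308. Ccr7 was below the Pax5 WT range in 1300, within it in 1302 and above it in 1301 and 1308. The part of these factors in the levels of S1pr1 and Ccr7 was not tested.

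**Figure D5:**
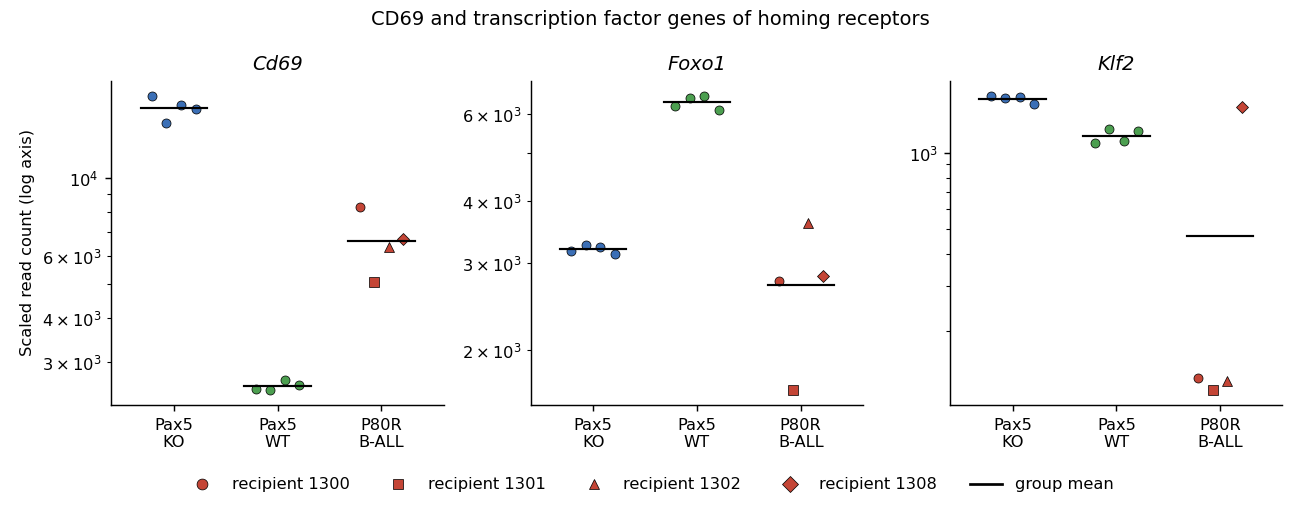
Scaled read counts of Cd69, Foxo1 and Klf2 in each library, on log axes, with a bar at each group mean. Cd69 is highest in Pax5 KO and Foxo1 in Pax5 WT, and Klf2 is at 130.2 or less in all leukaemias but recipient 1308.

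Levels can be ranked between genes only per kilobase of exon. The length used was that of all annotated exons joined, 1808 bases for Cxcr4, 6760 for Ccr2 and 13978 for Itga4. Transcripts in the cells may be shorter than this, so the ranks depend on the annotation. In Pax5 KO the order was Ccr7 (801 ± 67.0 scaled counts per kilobase, SD), Itgal (582 ± 17.1), Cxcr4 (472 ± 56.4), Ccr2 (226 ± 6.20), Itgb7 (190.1 ± 23.9), Itga4 (183 ± 3.99), S1pr1 (95.9 ± 11.8) and Cxcr5 (75.7 ± 9.03). Itgb7 and Itga4 lay within their spread of each other there. In Pax5 WT the order was Cxcr4 (1473 ± 90.9), Ccr7 (599 ± 24.7), Itga4 (290.1 ± 52.3), S1pr1 (158 ± 12.6), Itgal (80.6 ± 23.3), Itgb7 (31.7 ± 5.53), Cxcr5 (14.2 ± 3.68) and Ccr2 (2.61 ± 1.52), with neighbours apart by more than their SDs. In P80R B-ALL Cxcr4 came first (2075 ± 408), and the next 5, Ccr7, Ccr2, Itgal, Itgb7 and Itga4, had means of 554 to 283 that did not differ beyond their spread. Nor did Cxcr5 (71.2 ± 128) and S1pr1 (58.4 ± 27.1). The place of Itgb7 (393 ± 751) rests on recipient 1308, which had 1519 per kilobase against 8.00 to 31.3 in the others. Without 1308, Itgb7 was the lowest of the 8 (17.5 ± 12.2) and Ccr2 came after Itga4 (258 ± 190 against 326 ± 65.8). Without 1301, Cxcr5 was the lowest (7.08 ± 5.12). Ccr2 was thus the lowest in Pax5 WT and the fourth in Pax5 KO.

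The spread among the 4 leukaemias differed between the genes. For Itgb7 the SD on the log2 scale was 3.41, larger than that of 98.5% of the 12200 tested genes, for Cxcr5 it was 2.81 (96.9%) and for Ccr2 1.90 (90.8%). Ccr7 (0.83), S1pr1 (0.74), Itgal (0.65) and Itga4 (0.59) lay nearer the median of 0.47, above 72.4%, 68.9%, 64.5% and 60.8% of tested genes. Of Itgb7, Cxcr5 and Ccr2, recipient 1308 was highest for Itgb7 and Ccr2, and 1301 for Cxcr5. Recipient 1300 was lowest for Ccr7, Ccr2, Cxcr5 and Itgal and highest for S1pr1.

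For each gene the tested genes with the most similar pattern were found by Pearson's r of log2(value + 1) over the 12 libraries, which share group and depth, so r is a description. Msra (0.975) and Mis18a (0.974) were closest to Cxcr4, Amdhd2 (0.962) and Lgals1 (0.959) to Ccr7, and Fads3 (0.989) and Nod1 (0.978) to Ccr2. Arrdc3 (0.919) and Kdelc2 (0.918) were closest to Cxcr5, and Ing2 (0.975) and Ube2e3 (0.966) to S1pr1. Among the integrin chains, Cyth1 (0.942) and Lpcat1 (0.905) were closest to Itga4, Plxnc1 (0.983) and Samd9l (0.982) to Itgal, and Mvp (0.979) and Evi5 (0.975) to Itgb7. Between the 8 genes themselves the highest r was that of Ccr2 with Itgal (0.92) and the lowest that of Itga4 with Itgb7 (-0.80). Cxcr4 and Itga4, both lower in Pax5 KO, had an r of 0.64.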

How the data were processed

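RNA-seq was done on 12 libraries of sorted mouse cells. Per the labels' protocols, the kit was SMART-Seq v4, which does not mark strand. The submitters' processing notes name fastp, STAR 2.7.8a, featureCounts and mm39. The signal values deposited by the authors are scaled counts: all (100.0%, within 0.001) were whole multiples of a step, so that each library's counts had been divided by a factor (0.723 to 1.384) of an origin not given in the sources used here. Symbols and exon lengths came from GENCODE M21 (21780 of 21885 identifiers matched), whose build differs from that of the files.

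The 12200 genes at 10 or above in 4 or more libraries were tested on log2(value + 1) with limma 3.58.1 in R 4.3.3 (trend, robust, two-sided), each comparison on its own 2 groups, because the leukaemias varied more. Because the values were scaled, edgeR 4.0.16 on recovered reads was an alternative, beside other scalings, weights, filters and left-out libraries. The 8 genes and all lists were chosen with earlier results of these data known. Named genes were the 8, Itgb1, Itgb2, Ackr3, Klf2 and Pax5, up to 2 per context list and comparison with the smallest adjusted p, and the 2 genes most similar to each of the 8; a few genes are not reported here. Depth was 24914250 to 43513852 reads per library, and Poisson intervals cover counting error only. Calculations were tested on simulated data.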

Additional observations from a re-analysis of the deposited data

Results flagged for a closer look

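In each group of 4 libraries, the gap between the most extreme value and its nearest neighbour was divided by the whole range and compared with Dixon's 95% critical value. Over 24 such groups (the 8 genes in 3 groups each), 3 were past it, and for normal values chance gives about 1 in 20. The values used were scaled counts and not log2 values, so that rate may not hold here. Cxcr5 in P80R B-ALL was highest in recipient 1301 at 879, with the others at 10.5 to 42.9 (gap over range 0.963). Itgb7 in P80R B-ALL was highest in recipient 1308 at 4208, with the others at 22.2 to 86.8 (0.985). Itga4 in Pax5 KO was highest in replicate 3 at 2647, with the others at 2532 to 2544 (0.898), a narrow range in absolute terms.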

How the results depend on the processing

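Of 128 values of the 8 genes under alternatives in each comparison, 123 kept direction and side of the threshold in Pax5 KO against Pax5 WT, 114 in P80R B-ALL against Pax5 WT and 113 in P80R B-ALL against Pax5 KO. Where a value did not, the cause was not tested. With the spread estimated from all 12 libraries, 4193 genes and 3 of the 8 passed in Pax5 KO against Pax5 WT, in place of 7901 and 8. In P80R B-ALL against Pax5 KO 5888 genes and 2 of the 8 passed, in place of 4683 and 1. Group variance weights gave 2 of the 8 and 4312 genes there, and leaving out recipients 1300 and 1308 gave 5 of the 8 and 5971 genes. Leaving out 1 library in turn gave 1 to 4 of the 8 and 3118 (without Pax5 KO replicate 3) to 5315 genes in P80R B-ALL against Pax5 KO. The 8 gave 3 without 1300 (4584 genes), 2 without 1301 (4421 genes) and 4 without 1308 (5315 genes). Directions turned only among differences that had not passed. Against Pax5 WT, leaving out 1 library gave -0.28 to 0.17 for Itga4 (0.008 without Pax5 WT replicate 1, 0.17 without 1308), -0.44 to 0.15 for Ccr7 (0.15 without 1300), -1.16 to 0.93 for Cxcr5 (-1.16 without 1301) and -1.04 to 1.46 for Itgb7 (-1.04 without 1308). Without both 1300 and 1308 the values were 0.13 for Itga4, 0.0885 for Ccr7 and -0.96 for Itgb7. Against Pax5 KO, leaving out 1 library gave -0.27 (without 1308) to 1.26 for Ccr2, leaving out both 1300 and 1308 gave -0.0386 for Itgb2 (0.72 with all), and edgeR gave 0.0078 for Cxcr5 and 1.08 for Itgb7. Klf2 (adjusted p = 0.139 in edgeR) and Cxcl12 (adjusted p = 0.0747 with group variance weights) did not pass in P80R B-ALL against Pax5 KO. Replicate numbers are shared by the fetal liver groups, but same-numbered libraries correlated at 0.005 to 0.062 in their deviations and not every library correlated best with its own number. The replicate block gave 7987 genes and all 8, and changed no call of the 8; the leukaemias share no number with the other groups. Depth limits Cxcr5 in recipients 1300 and 1302 (8 and 14 reads) and Ccr2 in Pax5 WT (6 to 28 reads).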
